A study of Homo sapiens with 18 samples.

Results

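Transcripts of 9 tumour surface antigens that antibody-drug conjugates are directed against (NECTIN4, MSLN, FOLR1, CEACAM5, L1CAM, MUC1, MUC16, ROR1 and PTK7) were followed in one lung cancer line under a SMARCA2 degrader. The genes were taken by symbol from a table of 43236 gene symbols, and each of the 9 had one row. The line, NCI-H1693, was derived from a human non-small cell lung cancer and is described in the labels as deficient in SMARCA4. PRT3789, the degrader, was given at 50 nM and compared with its solvent DMSO after 6, 48 and 72 h, with 3 polyA RNA libraries in each of the 6 groups. All groups share the line and its missing SMARCA4, so the data describe a single line in culture. The labels do not say whether the 3 libraries of a group came from separate cultures, so each p-value measures only the spread between these libraries, which may be technical.

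An antibody-drug conjugate is an antibody joined by a linker to a cytotoxic payload. It binds an antigen on the cell surface, is taken up and releases the payload inside the cell, so the amount of antigen on tumour cells is a property of interest for each target. The antigens differ in kind. NECTIN4 and L1CAM are transmembrane adhesion molecules of the immunoglobulin superfamily, and CEACAM5 is an adhesion molecule of the same superfamily held by a glycosylphosphatidylinositol (GPI) anchor. MUC1 and MUC16 are transmembrane mucins, MSLN (mesothelin) is a GPI-anchored binding partner of MUC16, and FOLR1 is the GPI-anchored folate receptor alpha. ROR1 and PTK7 are receptor tyrosine kinase-like proteins of Wnt and planar cell polarity signalling. SWI/SNF complexes open chromatin at promoters and enhancers, using either SMARCA2 or SMARCA4 as their ATPase. Only RNA was measured here, and neither surface protein nor binding of a conjugate was.

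Levels are given as CPM, the counts of a gene per 1000000 counts of its library after scaling by the trimmed mean of M values. Differences are log2 fold changes (log2FC) with their standard error (SE) from edgeR's quasi-likelihood test, fitted on all 18 libraries. A gene was called when its p-value, adjusted by Benjamini-Hochberg over 16291 genes, was under 0.05. Library totals ran from 23154484 to 31094797 counts. The spread within a group (median SD of log2 CPM) was 0.161 and 0.181 at 6 h and between 0.0734 and 0.128 at the later times. Each library was also compared with the mean of all libraries of its time, both arms together. The Spearman correlation of this deviation with transcript length was between -0.55 and 0.57 at 6 h. At 48 h it ran from -0.36 to 0.26 and at 72 h from -0.14 to 0.17. The 13071 genes used depend on one another, so the values are only descriptive. A difference between the arms enters them. At 48 h they were 0.26, 0.15 and 0.25 in PRT3789 and 0.03, -0.36 and -0.26 in DMSO. An alternative that removes this trend may therefore also remove part of the treatment difference. The part of the trend in the results was not tested further. Epithelial markers were present in every library, with EPCAM between 559 and 930 CPM. Of 4 lung markers, SFTPC was at 0, SFTPB at most 0.265, NKX2-1 at most 0.895 and NAPSA at most 3.05 CPM. Summed, these 4 ran from 1.84 to 3.98 CPM in PRT3789 and from 0.290 to 1.32 CPM in DMSO at 6 h. At 48 h the sums ran from 0.953 to 3.68 CPM in PRT3789 and from 0.441 to 0.958 CPM in DMSO. At 72 h they ran from 0.340 to 1.01 CPM in PRT3789 and from 0.299 to 2.21 CPM in DMSO. The groups with the highest sums (PRT3789 at 6 and 48 h and DMSO at 72 h) hold the libraries with an excess of some low transcripts, described below. The difference in these sums at 6 h cannot be told apart from that excess. The stromal marker LUM ran from 61.5 to 128 CPM, whereas the blood marker HBB was at 0 in all 18 libraries. At 48 h the mean level of SMARCA2 RNA was 37.0 ± 2.10 CPM under PRT3789 and 42.2 ± 2.04 CPM under DMSO (SD, n = 3), and at 72 h SMARCA2 was called lower (34.8 ± 2.35 against 47.2 ± 2.49 CPM, edgeR adjusted p = 0.00108, and 0.0503 without 3 libraries described below). Neither is a check of the degrader, which acts on the protein. Of 4 readout genes (SMARCA2, SMARCA4, KRT80 and PLAU) 1 was lower at 6 h, 2 at 48 h and 3, with SMARCA2 among them, at 72 h. Over all genes tested 3.04%, 20.9% and 22% were called lower at these times. The 4 genes were chosen with earlier results of these data known.

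Promoter windows of 3 members are shown because these members stood for the 3 courses described below: NECTIN4 was lower from the earliest time, L1CAM was lower later on, and MUC1 was higher later on. RefSeq (GRCh38.p14) gave such windows, from 250 bases before to 50 after a transcription start, for 7 of the 9 members. NECTIN4 lies on chromosome 1 (161070998 to 161089558, minus strand), L1CAM on chromosome X (153861514 to 153886173, minus strand) and MUC1 on chromosome 1 (155185824 to 155192915, minus strand). The window of NECTIN4 is chr1:161089509-161089808, that of MUC1 is chr1:155192866-155193165, and that of L1CAM is chrX:153875895-153876194, at a start inside the L1CAM gene. Each is written 5′ to 3′ on the strand of its gene, and capitals mark GC boxes (GGGCGG or its reverse complement CCGCCC) and the TEAD letters (GGAATG).
NECTIN4: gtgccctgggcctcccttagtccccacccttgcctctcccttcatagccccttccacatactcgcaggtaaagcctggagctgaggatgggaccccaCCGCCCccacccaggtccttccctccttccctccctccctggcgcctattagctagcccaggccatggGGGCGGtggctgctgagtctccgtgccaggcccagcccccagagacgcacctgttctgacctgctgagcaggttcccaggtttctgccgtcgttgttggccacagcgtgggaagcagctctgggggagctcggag
L1CAM: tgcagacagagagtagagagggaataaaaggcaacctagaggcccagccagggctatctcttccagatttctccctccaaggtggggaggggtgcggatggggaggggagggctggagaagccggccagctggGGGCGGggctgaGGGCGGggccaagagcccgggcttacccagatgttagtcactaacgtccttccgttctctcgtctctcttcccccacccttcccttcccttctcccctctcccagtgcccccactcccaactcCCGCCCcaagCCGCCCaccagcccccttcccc
MUC1: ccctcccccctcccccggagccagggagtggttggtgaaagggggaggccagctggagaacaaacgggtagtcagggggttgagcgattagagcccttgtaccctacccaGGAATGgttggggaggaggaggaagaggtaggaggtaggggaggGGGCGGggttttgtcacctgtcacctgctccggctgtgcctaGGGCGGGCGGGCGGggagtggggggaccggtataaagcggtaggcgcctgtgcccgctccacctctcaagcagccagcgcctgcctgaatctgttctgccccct
The windows were searched on both strands for 5 short motifs, chosen after the windows and earlier results had been seen. The NECTIN4 window held 2 GC boxes, L1CAM 4 and MUC1 4, of which 3 overlap one another, and MUC1 also held 1 TEAD match. GC boxes stood in 45.0% and the TEAD letters in 14.0% of 35116 RefSeq promoter windows of this length. The letters of AP-1 (TGANTCA, in 7.71% of windows), of the longer NF-E2 motif (0.154%) and of ETS (CCGGAA, 17.2%) were not found in these 3 windows. A shorter form of the NF-E2 motif, picked from the NECTIN4 window itself, was dropped. Matches are a description of letters and say nothing of binding.

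**Figure D1:**
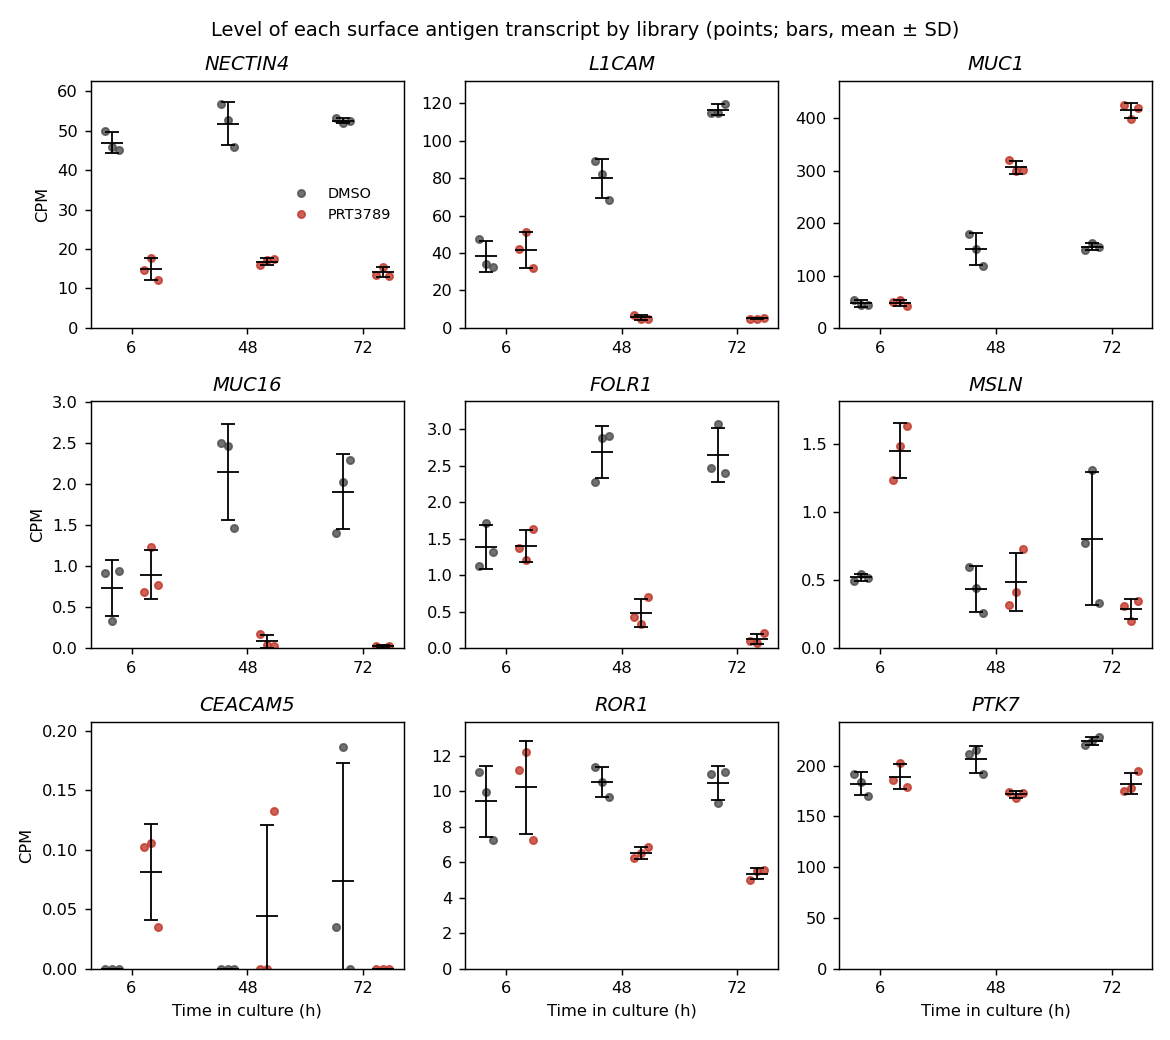
Levels of the 9 antigen transcripts in CPM (vertical axis, from 0) against time in culture in hours, with 1 point per library in DMSO (grey) or PRT3789 (red) and bars for the mean and SD of 3 libraries. NECTIN4 separates at 6 h, L1CAM, MUC16 and FOLR1 are lower and MUC1 higher under PRT3789 at 48 and 72 h, and CEACAM5 stays under 0.19 CPM.

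Of the 9 members, 8 passed the filter on low counts (edgeR's filterByExpr), while CEACAM5, with 17 counts over the 18 libraries, did not. MSLN reached the filter's 0.363 CPM in 12 libraries, FOLR1 in 14 and MUC16 in 11, and the other 5 members in all 18. Those 3 low members thus passed through only some of their groups. Under PRT3789 at 6 h, 1 of the 8 tested members was called, and it was lower, where 4.33% of all genes tested were called (3.04% lower and 1.28% higher). That share depends on single libraries and settings: the 209 genes higher and 496 lower at 6 h became 574 and 509 without DMSO 6 h replicate 1, and 3186 and 3329 with limma-voom quality weights. At 48 h 6 members were lower and 1 higher, where 42.1% of genes were called (20.9% lower and 21.2% higher). At 72 h 7 were lower and 1 higher, where 43.4% of genes were called (22% lower and 21.3% higher). Without 3 libraries that are described below, the lower members at 72 h were 5. The median log2FC over all genes tested was between -0.01 and 0.01 at these times. The CPM ranges of the groups did not overlap for 2 members at 6 h (14.7% of all genes), for 7 at 48 h (56.2%) and for 7 at 72 h (61.9%).

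Among the adhesion molecules, NECTIN4 was lower under PRT3789 at every time. At 6 h its 3 DMSO libraries were at 49.9, 46.0 and 45.1 CPM and its 3 PRT3789 libraries at 14.7, 17.7 and 12.2 CPM. At 48 h the DMSO libraries were at 56.8, 52.8 and 45.8 CPM and the PRT3789 libraries at 15.9, 17.1 and 17.5 CPM. At 72 h they were at 53.3, 52.0 and 52.4 CPM in DMSO and at 13.5, 15.6 and 13.2 CPM in PRT3789. Every PRT3789 library was below every DMSO library, and no comparison between times within an arm was called. As in any bulk sample, fewer cells with the transcript and less RNA per cell cannot be told apart. NECTIN4 fell 3.16-fold at 6 h (log2FC -1.66 ± 0.11 SE, edgeR adjusted p = 6.18e-08), then 3.08-fold at 48 h (-1.62 ± 0.11, adjusted p = 3.07e-09), and by 72 h 3.73-fold (-1.90 ± 0.11, adjusted p = 3.7e-10). With the 6 h libraries fitted apart, where 0.976% of genes were called (0.837% lower and 0.139% higher), NECTIN4 was still called (-1.65, edgeR adjusted p = 0.0056). The change of its effect was 0.04 ± 0.16 from 6 to 48 h (95% interval -0.27 to 0.34) and -0.28 ± 0.16 from 48 to 72 h (-0.58 to 0.03), neither of them called.

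Other nectins and nectin-like proteins did not share this course. Of 10 in the list, 8 were tested, and at 48 h 3 were higher and 2 lower, at 72 h 4 higher and 1 lower. As for every gene list below, these counts stand beside 42.1% of all genes called at 48 h and 43.4% at 72 h. NECTIN2, a widely expressed nectin, rose from 104 ± 10.1 CPM in DMSO to 171 ± 2.17 CPM in PRT3789 at 48 h (0.72 ± 0.07, edgeR adjusted p = 1.05e-07), and by 72 h 1.98-fold (adjusted p = 1.66e-09). AFDN (afadin), the cytoplasmic adaptor that ties nectins to actin, rose 1.47-fold at 48 h (adjusted p = 0.000601), and by 72 h 1.26-fold (adjusted p = 0.0209, and 0.0579 to 0.112 without single libraries, namely replicates 1 and 2 of either group at 72 h). Without 3 libraries described below, the log2FC of AFDN at 72 h was 0.17 (edgeR adjusted p = 0.521). CADM1, a nectin-like adhesion molecule, fell 2.56-fold and 3.07-fold (-1.36 ± 0.09 and -1.62 ± 0.09).

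L1CAM, which mediates adhesion and migration in neurons and in tumour cells, had the largest fall among the 5 members that reached the filter in every library. At 6 h DMSO libraries were at 47.6, 34.2 and 32.7 CPM and PRT3789 libraries at 42.0, 51.2 and 31.9 CPM, and the groups overlapped. At 48 h they were at 89.2, 82.0 and 68.5 CPM in DMSO and 7.08, 5.01 and 4.97 CPM in PRT3789. At 72 h they were at 114.9, 114.7 and 119.8 CPM in DMSO and 4.86, 4.93 and 5.39 CPM in PRT3789. The groups lay far apart at both later times, with DMSO higher at 72 than at 48 h in every library. At 6 h L1CAM was not called (0.13 ± 0.16, edgeR adjusted p = 0.803), whereas it fell 14.0-fold at 48 h (-3.81 ± 0.19, adjusted p = 6.7e-11) and further below DMSO at 72 h (-4.52 ± 0.19, adjusted p = 7.75e-12).

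Both arms of L1CAM moved after 6 h, in opposite directions. In DMSO, L1CAM rose 2.09-fold from 6 to 48 h (1.06 ± 0.16, edgeR adjusted p = 9.94e-05), and in PRT3789 it fell 7.33-fold over the same interval (-2.87 ± 0.19, adjusted p = 1.48e-09). From 48 to 72 h the DMSO level was 1.46-fold higher (0.54 ± 0.16) but not called (adjusted p = 0.12). These comparisons share libraries with the treatment comparisons and are no separate evidence. Of 13 relatives and adaptors of L1CAM, 8 were tested, with 1 higher and 1 lower at 48 h and 2 lower at 72 h. ANK3, an ankyrin that binds the cytoplasmic tail of the L1 family, was 1.30-fold higher at 48 h (edgeR adjusted p = 0.0168). That call was lost without DMSO 48 h replicate 1 (adjusted p = 0.0632) or PRT3789 48 h replicate 2 (0.0717). Without 3 libraries described below it was also lost (0.0531), and with the length trend removed the log2FC was 0.07 (adjusted p = 0.568). That removal may also take out part of the treatment difference, as said above. RDX (radixin), which links membrane proteins to actin, was 1.25-fold lower at 72 h (edgeR adjusted p = 0.0252). The RDX call was lost without DMSO 72 h replicate 2 or 3 or PRT3789 72 h replicate 1 or 3 (0.0545 to 0.12). It was also lost with total counts (0.103) and without those 3 libraries (0.149).

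CEACAM5 was scarcely present. Its 17 counts were 3, 3 and 1 in the PRT3789 libraries of 6 h, 4 in PRT3789 48 h replicate 3, and 1 and 5 in DMSO 72 h replicates 1 and 2. The other 12 libraries had a count of 0, which allows up to 3 counts or between 0.0958 and 0.142 CPM in a library of this depth, for counting error only. Of 11 other CEACAM genes 3 were tested, and reads of close paralogs such as CEACAM5 and CEACAM6 can be split between them in counting, so the level of each is uncertain. The 6 libraries with CEACAM5 counts are taken up again below.

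Among the mucins, MUC1 was the only member to be higher under PRT3789 at 48 and 72 h. MUC1 lines the apical surface of epithelia and carries signals through its cytoplasmic tail. At 6 h its DMSO libraries were at 53.8, 43.5 and 43.2 CPM and its PRT3789 libraries at 49.1, 53.7 and 41.9 CPM. At 48 h they were at 179.9, 151.0 and 118.8 CPM in DMSO and 321.4, 298.9 and 300.7 CPM in PRT3789. At 72 h they were at 148.9, 161.5 and 154.8 CPM in DMSO and 426.0, 399.0 and 420.6 CPM in PRT3789. Levels overlapped at 6 h and lay apart later, and the 3 DMSO libraries of 48 h spread more than those of 72 h. MUC1 rose 2.05-fold at 48 h (1.03 ± 0.12, edgeR adjusted p = 2.46e-06), and by 72 h 2.68-fold (1.42 ± 0.12, adjusted p = 4.58e-08), while at 6 h the value was 0.04 ± 0.12 (adjusted p = 0.921).

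MUC1 also rose with time in DMSO alone, by 3.20-fold from 6 to 48 h (1.68 ± 0.13, edgeR adjusted p = 4.25e-08). In PRT3789 the rise over that interval was 6.36-fold (2.67 ± 0.13, adjusted p = 2.8e-11). The treatment effect at 48 h is thus a difference on top of a rise in the controls. From 48 to 72 h the difference was 0.05 ± 0.12 in DMSO and 0.44 ± 0.12 in PRT3789 (adjusted p = 0.0897), and neither was called.

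MUC16, the large mucin that carries the CA125 epitope, went the other way at low levels. At 6 h it was at 0.913, 0.335 and 0.946 CPM in DMSO and 0.686, 1.24 and 0.766 CPM in PRT3789. At 48 h the DMSO libraries were at 2.50, 2.46 and 1.47 CPM, and the PRT3789 libraries at 0.178, 0.0414 and 0.0332 CPM. At 72 h they were at 1.41, 2.02 and 2.29 CPM in DMSO, against counts of 1, 0 and 1 in the PRT3789 libraries. Groups overlapped at 6 h, and all 6 later PRT3789 libraries were below all DMSO libraries of their time. Over the groups, 184 counts in DMSO stood against 7 in PRT3789 at 48 h, a ratio of 25.4 after scaling (exact 95% interval 12.1 to 64.0, for counting error only). At 72 h 163 counts stood against 2, a ratio of 83.1 (22.6 to 692). MUC16 was called lower at 48 h (-4.59 ± 0.53, edgeR adjusted p = 1.73e-06) and 72 h (-6.12 ± 0.64, adjusted p = 5.14e-07), and in DMSO it rose from 6 to 48 h (1.55 ± 0.39, adjusted p = 0.00491). Among 18 other mucin genes 4 were tested, and 3 of these were lower at 48 and 72 h. MUC20, a mucin that interacts with the MET receptor, was at 42.2 ± 2.46 CPM in DMSO and 7.63 ± 1.78 CPM in PRT3789 at 48 h (-2.46 ± 0.13, edgeR adjusted p = 9.89e-11) and fell 5.31-fold at 72 h. MUC5AC, a secreted airway mucin, had 2 counts in all libraries together.

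FOLR1, which takes up folate by endocytosis, was also low and also fell later. At 6 h it was at 1.12, 1.72 and 1.32 CPM in DMSO and 1.37, 1.20 and 1.64 CPM in PRT3789, with overlap. At 48 h it was at 2.27, 2.87 and 2.90 CPM in DMSO and 0.427, 0.332 and 0.696 CPM in PRT3789. At 72 h it was at 2.46, 3.06 and 2.39 CPM in DMSO and 0.104, 0.0681 and 0.209 CPM in PRT3789. Every later PRT3789 library was below every DMSO library, and the PRT3789 libraries of 72 h were below those of 48 h. FOLR1 fell 5.53-fold at 48 h (-2.44 ± 0.28, edgeR adjusted p = 1.7e-06), and by 72 h 20.8-fold (-4.33 ± 0.34, adjusted p = 1.37e-08), the latter on 11 counts in PRT3789 against 224 in DMSO (exact 95% interval of the ratio 11.4 to 42.2). Within PRT3789 it fell further from 48 to 72 h (-1.92 ± 0.41, adjusted p = 0.0234), where 1.44% of genes were called (0.448% lower and 0.994% higher). That call was lost with replicate numbers as a block (adjusted p = 0.0788) and with limma-voom (0.0608). Leaving out either of PRT3789 48 h replicates 1 and 3 or PRT3789 72 h replicates 1 and 2 also lost it (0.0557 to 0.143). The call was lost too without 3 libraries described below, of which PRT3789 48 h replicate 3 is one. In DMSO, FOLR1 rose 1.93-fold from 6 to 48 h (0.95 ± 0.25, adjusted p = 0.00692).

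Genes of folate transport and use were called in both directions, as were all genes (42.1% and 43.4% called at 48 and 72 h). Of 19 in the list, 15 were tested, with 4 higher and 7 lower at 48 h and 3 higher and 7 lower at 72 h (median log2FC -0.12 and -0.17). SHMT2, the mitochondrial serine hydroxymethyltransferase, fell 2.04-fold and then 1.88-fold relative to DMSO, and SHMT1, its cytosolic counterpart, 1.54-fold and 1.81-fold. TYMS (thymidylate synthase) fell 1.67-fold at both times (edgeR adjusted p from 5.11e-10 to 1.55e-06 over these 6 values). FOLR2, the folate receptor beta, had a count of 0 in every library, and FOLR3 had 6 counts in all.

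MSLN was near the limit of detection, at 331 counts over the 18 libraries. At 6 h it was at 0.498, 0.544 and 0.520 CPM in DMSO and 1.23, 1.48 and 1.64 CPM in PRT3789. At 48 h it was at 0.596, 0.447 and 0.257 CPM in DMSO and 0.320, 0.414 and 0.729 CPM in PRT3789. At 72 h it was at 0.774, 1.31 and 0.332 CPM in DMSO and 0.312, 0.204 and 0.348 CPM in PRT3789. Groups were apart at 6 h and overlapped at 48 and 72 h, with PRT3789 48 h replicate 3 and DMSO 72 h replicates 1 and 2 above the others of their groups. The difference was 1.47 ± 0.41 at 6 h (edgeR adjusted p = 0.0537, and 0.0471 with the 6 h libraries fitted apart), 0.18 ± 0.45 at 48 h (adjusted p = 0.773) and -1.46 ± 0.45 at 72 h (adjusted p = 0.0146). The call at 72 h was lost without DMSO 72 h replicate 2 (-0.92, adjusted p = 0.131), without PRT3789 72 h replicate 2 (-1.25, adjusted p = 0.0655) and with replicate numbers as a block (-1.35, adjusted p = 0.0503).

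**Figure D2:**
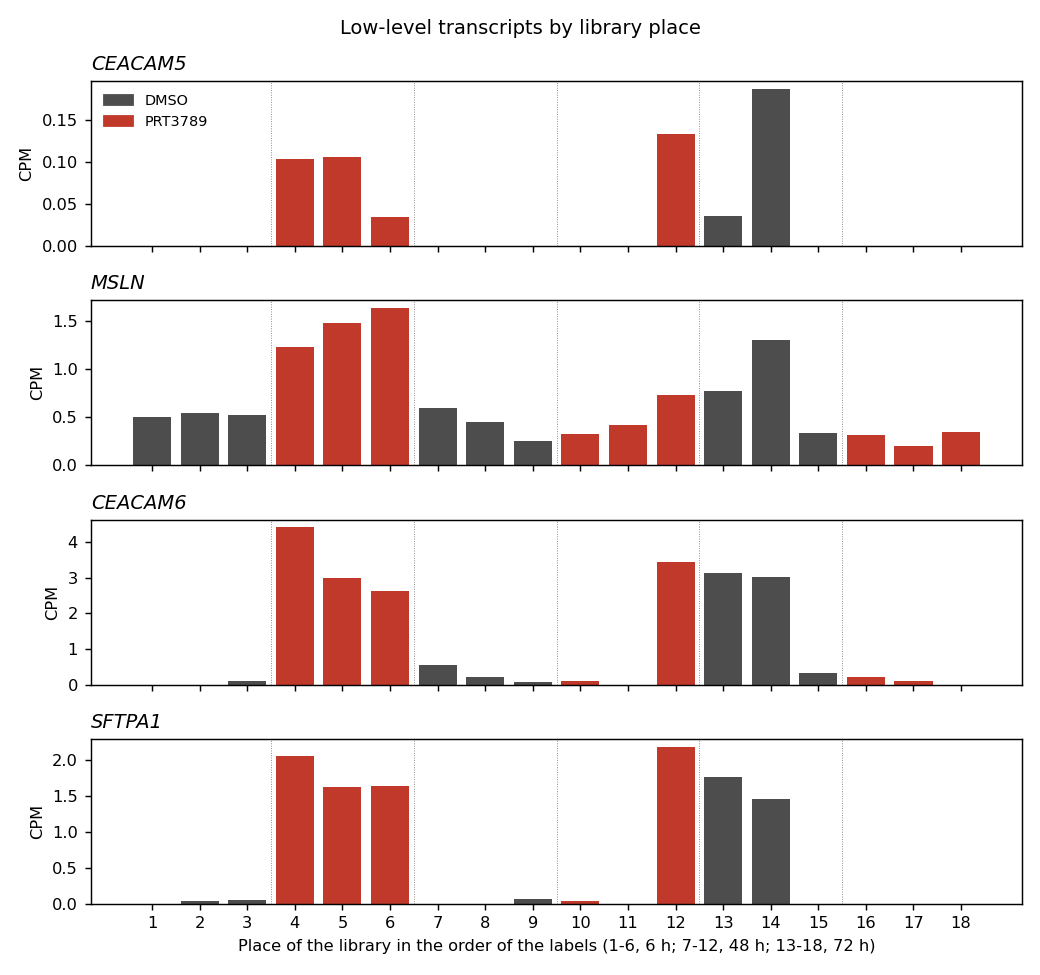
CPM of 4 low transcripts (bars from 0, a vertical axis each) in the 18 libraries, in the order of the labels, with DMSO in grey and PRT3789 in red. In CEACAM5, CEACAM6 and SFTPA1 nearly all signal is in places 4, 5, 6, 12, 13 and 14, and MSLN is highest in the same 6 libraries.

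The counts of CEACAM5 and the high values of MSLN fell in the same 6 libraries. In the order of the labels these are places 4, 5 and 6 (PRT3789 at 6 h) and, 8 places further on, 12, 13 and 14 (PRT3789 48 h replicate 3 and DMSO 72 h replicates 1 and 2). In the order of the deposited columns these 6 libraries stand at places 11, 14, 17, 16, 3 and 6 and form no block. Neither order is taken here as that of library preparation or sequencing. MSLN was between 0.729 and 1.64 CPM in these 6 and between 0.204 and 0.596 CPM in the other 12. CEACAM6, SFTPA1 and SLC34A2, genes of lung and airway epithelium, were named after their values were seen. CEACAM6 had 564 of its 612 counts in these 6 libraries and SFTPA1 308 of 313. SLC34A2 followed this only in part, with 3702 of 6937 counts in the 6 libraries. It was at 14.3 CPM at place 12, against 4.13 and 3.94 CPM at places 10 and 11 of the same group, but at 17.9 and 18.7 CPM in replicates 3 and 2 of DMSO at 48 h, and higher still in replicate 1. The 6 libraries belong to 3 groups, and those at places 12 to 14 are from both arms. The higher MSLN level at 6 h cannot be told apart from this excess, and without the libraries at places 12 to 14 its difference at 72 h was -0.20 (edgeR adjusted p = 0.831). Places 4 to 6 are the whole PRT3789 group of 6 h, and no alternative leaves all of them out. A part of the excess in the 6 h values of other low members, such as FOLR1, was therefore not tested. Where the RNA or reads of this excess came from was not tested.

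At place 12 the other members differed in direction. L1CAM was at 4.97 CPM there, against 7.08 and 5.01 at places 10 and 11, and MUC16 at 0.0332, against 0.178 and 0.0414. NECTIN4 was at 17.5 CPM, against 15.9 and 17.1, and MUC1 at 300.7, against 321.4 and 298.9. ROR1 was at 6.86 CPM, against 6.22 and 6.51, and PTK7 at 173.2, against 174.4 and 168.1. NECTIN4, ROR1 and FOLR1 were thus highest at place 12, by the widest margin FOLR1, at 0.696 CPM against 0.427 and 0.331. Without places 12 to 14 the log2FC of FOLR1 at 48 h was -2.82 (edgeR adjusted p = 1.62e-05). Without those 3 libraries the 48 h value was -3.73 for L1CAM, -4.20 for MUC16 and 1.03 for MUC1, all of them called.

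ROR1, a receptor for WNT5A that is abundant in embryonic tissue, fell modestly. At 6 h DMSO libraries were at 11.1, 9.97 and 7.24 CPM and PRT3789 libraries at 11.2, 12.2 and 7.24 CPM. At 48 h they were at 11.4, 10.5 and 9.70 CPM in DMSO and 6.22, 6.51 and 6.86 CPM in PRT3789. At 72 h they were at 11.0, 9.34 and 11.1 CPM in DMSO and 5.00, 5.51 and 5.57 CPM in PRT3789. The groups overlapped at 6 h and were apart at 48 and 72 h, with a DMSO level that stayed between 7.24 and 11.4 CPM throughout. ROR1 fell 1.61-fold at 48 h (-0.69 ± 0.17, edgeR adjusted p = 0.00327), and by 72 h 1.95-fold (-0.97 ± 0.17, adjusted p = 0.000172).

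PTK7, a pseudokinase co-receptor of planar cell polarity, changed least among the called members. At 6 h its DMSO libraries were at 192.1, 183.9 and 169.7 CPM and its PRT3789 libraries at 186.2, 202.8 and 178.6 CPM. At 48 h they were at 211.5, 215.3 and 191.3 CPM in DMSO and 174.4, 168.1 and 173.2 CPM in PRT3789. At 72 h they were at 220.3, 223.7 and 228.4 CPM in DMSO and 174.9, 177.8 and 194.2 CPM in PRT3789. The groups overlapped at 6 h and were apart at both later times. PTK7 fell 1.20-fold at 48 h (-0.26 ± 0.07, edgeR adjusted p = 0.00538), and by 72 h 1.23-fold (-0.30 ± 0.07, adjusted p = 0.0018). With total counts as the scale the 48 h value was -0.20 and not called (adjusted p = 0.0514), and without the libraries at places 12 to 14 the 72 h value was -0.32 (adjusted p = 0.0514).

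Of 25 genes of non-canonical Wnt signalling and planar polarity 23 were tested, with 7 higher and 6 lower at 48 h and 5 higher and 10 lower at 72 h. CELSR1 and CELSR3, cadherins of planar polarity, rose 3.08-fold and 3.29-fold at 48 h (edgeR adjusted p = 6.5e-08 and 9.67e-09), opposite to PTK7 and ROR1. WNT5B, a non-canonical Wnt ligand, fell 2.42-fold at 48 h (-1.27 ± 0.13), and by 72 h 2.19-fold (-1.13 ± 0.12).

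**Figure D3:**
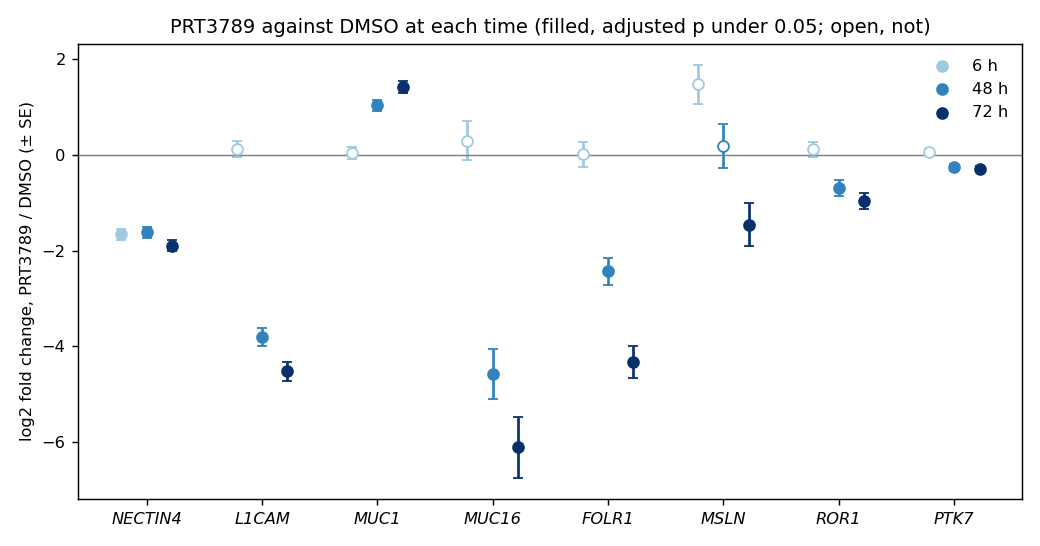
Log2 fold change of PRT3789 against DMSO (vertical axis, ± SE) for the 8 tested members at 6, 48 and 72 h, filled where the adjusted p was under 0.05. NECTIN4 is at -1.66 already at 6 h, whereas L1CAM, MUC16, FOLR1, MUC1, ROR1 and PTK7 are called only at 48 and 72 h.

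The change of effect between times was tested directly. From 6 to 48 h it was called for 6 of the 8 tested members, 5 towards lower and 1 towards higher, where 19.2% of all genes were called (10.4% towards lower and 8.83% towards higher). It was largest for MUC16 (-4.89 ± 0.69, edgeR adjusted p = 6.24e-05), followed by L1CAM (-3.94 ± 0.25, adjusted p = 7.46e-09) and FOLR1 (-2.45 ± 0.38, adjusted p = 0.000174). MUC1 changed towards higher (0.99 ± 0.17, adjusted p = 0.000527). For ROR1 (-0.80 ± 0.24, adjusted p = 0.0244) and PTK7 (-0.32 ± 0.10, adjusted p = 0.029) the call was lost without single libraries: for ROR1 PRT3789 6 h replicates 1 and 2, DMSO 48 h replicate 1 and PRT3789 48 h replicate 1 (adjusted p 0.0548 to 0.0634), and for PTK7 DMSO 6 h replicate 3, PRT3789 6 h replicate 2, DMSO 48 h replicates 1 and 2 and PRT3789 48 h replicates 2 and 3 (0.0506 to 0.0702). Both calls were also lost without places 12 to 14 (0.0624 for ROR1 and 0.0946 for PTK7), and that of PTK7 with total counts and with no filter (0.0687 each). From 48 to 72 h edgeR called 0 of the members and 0% of all genes, while 4 members (FOLR1, L1CAM, MSLN and MUC1) and 1476 genes had an unadjusted p under 0.05. DESeq2 called 62 genes towards higher and 33 towards lower there and 0 members, and limma-voom with sample quality weights called 3 members.

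Comparisons between times were made within each arm. From 6 to 48 h in DMSO, 5 of the 8 tested members rose (FOLR1, L1CAM, MUC1, MUC16 and PTK7), where 37.2% of genes were called (17.1% higher and 20.1% lower). The call of PTK7 (0.18 ± 0.07, edgeR adjusted p = 0.0494) was lost without any one of 13 libraries (0.051 to 0.148). From 48 to 72 h in DMSO edgeR called 0 members and 0.540% of genes (0.387% higher and 0.153% lower), with L1CAM alone at an unadjusted p under 0.05 (0.00343) and called by DESeq2 (adjusted p = 0.0467). In PRT3789 from 6 to 48 h, 1 member rose (MUC1) and 5 fell (FOLR1, L1CAM, MSLN, MUC16 and ROR1), where 56.7% of genes were called (28.0% higher and 28.8% lower). The PRT3789 libraries of 6 h are those at places 4 to 6, whose MSLN level cannot be told apart from the excess described above.

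Compared per kilobase of transcript, the order of the antigens changed under PRT3789. In DMSO at 72 h MUC1 led with 85.6 ± 3.49 CPM per kb, before PTK7 with 53.1 ± 0.959, L1CAM with 22.7 ± 0.559 and NECTIN4 with 15.2 ± 0.189. FOLR1 (2.84 ± 0.397) and ROR1 (1.79 ± 0.166) followed, then MSLN (0.366 ± 0.222), MUC16 (0.0435 ± 0.0103) and CEACAM5 (0.0211 ± 0.0284), of which the last pair overlapped in their libraries. In PRT3789 at 72 h the order was MUC1 (229 ± 7.87 CPM per kb), PTK7 (43.2 ± 2.47), NECTIN4 (4.07 ± 0.370), L1CAM (0.985 ± 0.0562), ROR1 (0.915 ± 0.0536), FOLR1 (0.137 ± 0.0786), MSLN (0.131 ± 0.0341) and MUC16 (0.000529). There L1CAM and ROR1 overlapped, as did FOLR1 and MSLN. At 6 h in DMSO PTK7 (43.1 ± 2.69) stood before MUC1 (25.9 ± 3.36), NECTIN4 (13.6 ± 0.743) and L1CAM (7.43 ± 1.60), and ROR1 and FOLR1 overlapped at 1.61 ± 0.340 and 1.49 ± 0.326.

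Genes with the most similar course over the 18 libraries are given as a description, since these libraries fall into the groups that set the courses. Among 11059 genes with a mean of at least 5 CPM, MISP, an actin-binding protein, was most like NECTIN4 (Pearson r of log2 CPM 0.986), with 45.5 CPM under DMSO and 21.6 under PRT3789 at 6 h, and TFAP2C, an AP-2 transcription factor, was also among the 3 most like it (0.979). For L1CAM it was ALPP, placental alkaline phosphatase (0.994), with 43.1 CPM under DMSO and 1.23 under PRT3789 at 48 h. For MUC1 it was LAMB2, a laminin subunit (0.992), at 88.4 and 180 CPM. TMEM130 was most like FOLR1 (0.971), LTBP2 most like ROR1 (0.961) and GALNT2, an enzyme that starts mucin-type O-glycans, most like PTK7 (0.939).

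**Figure D4:**
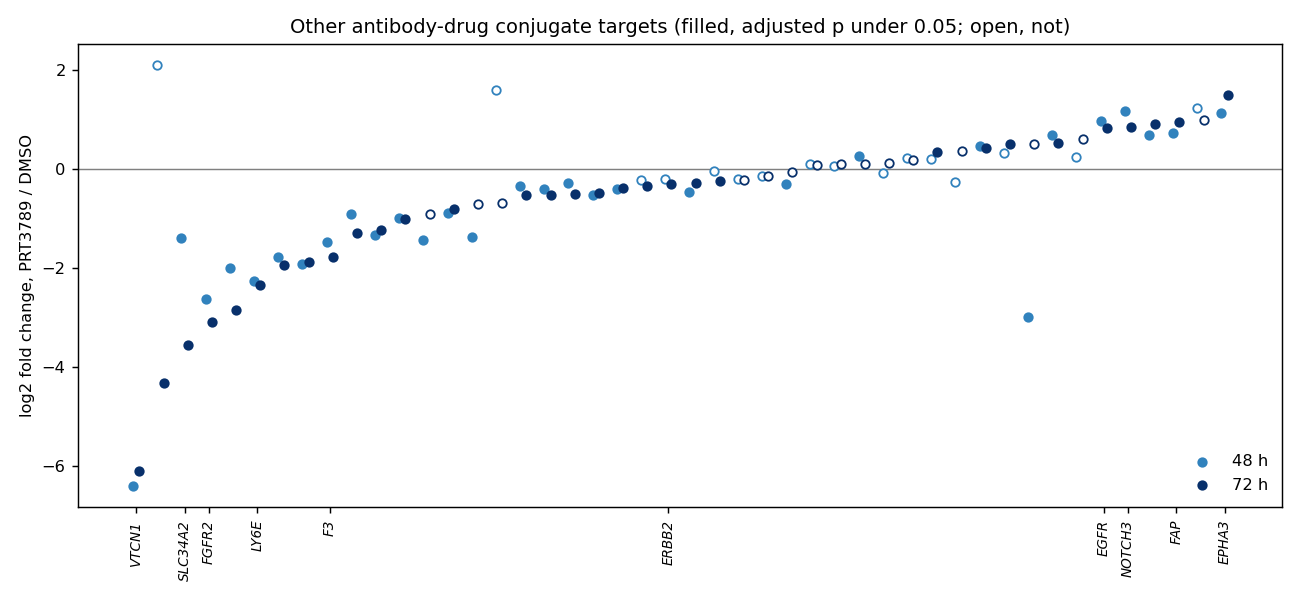
Log2 fold change of PRT3789 against DMSO (vertical axis) for other genes that antibody-drug conjugates target, at 48 h (light) and 72 h (dark), filled where the adjusted p was under 0.05, with names for the genes given in the text. VTCN1 is lowest at both times among genes called at both, and EPHA3, FAP, NOTCH3 and EGFR lie above 0.

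Other conjugate targets in the table set the members in context. Of 55 such genes 46 were tested, and 18 were lower and 7 higher at both 48 and 72 h, which over all genes held for 16.8% and 15.8%. The median log2FC of the 46 was -0.24 at 48 h and -0.30 at 72 h, against 0.01 over all genes at both times. VTCN1 (B7-H4), an immune checkpoint ligand, was at 37.6 ± 1.61 CPM in DMSO and 0.433 ± 0.241 CPM in PRT3789 at 48 h (-6.41 ± 0.20, edgeR adjusted p = 1.4e-13). FGFR2 fell 6.19-fold and LY6E 4.79-fold at 48 h, and F3 (tissue factor) 2.78-fold. VTCN1, FGFR2 and F3 were also called lower at 6 h (1.63-, 2.16- and 1.49-fold), as NECTIN4 was, although VTCN1 was not with the 6 h libraries fitted apart (adjusted p = 0.0604). One of the 18 is SLC34A2, which was high at place 12 as described above. Named after their values were seen, EGFR rose 1.96-fold at 48 h, and ERBB2 (HER2) had 785 ± 20.1 CPM under PRT3789 and 901 ± 45.4 CPM under DMSO and was not called at 48 h (adjusted p = 0.122). At 72 h ERBB2 was called lower (-0.31 ± 0.10, edgeR adjusted p = 0.017), but not with total counts (0.0826), without DMSO 72 h replicate 2 or 3 or PRT3789 72 h replicate 2 (0.0505 to 0.0716) or without places 12 to 14 (0.161).

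Genes that a conjugate needs inside the cell were measured as well. Of 34 genes of uptake, linker cleavage and payload response 33 were tested, with 7 higher and 15 lower at 48 h and 8 higher and 14 lower at 72 h, where 42.1% and 43.4% of all genes were called, about evenly in both directions. Their median log2FC was -0.22 and -0.15. CTSB (cathepsin B), a lysosomal protease that cleaves dipeptide linkers, fell 1.67-fold at 48 h and 1.46-fold at 72 h. CAV1 (caveolin-1) rose 2.88-fold and 2.87-fold and TUBB6, a beta tubulin, 2.16-fold and 2.56-fold (edgeR adjusted p from 5.74e-11 to 4.53e-07 over these 6 values). Of 32 genes that make or attach the GPI anchor, which MSLN, FOLR1 and CEACAM5 carry, all were tested, and 10 were higher and 4 lower at 48 h, a share close to that of all genes (42.1%). Of 25 sheddases, intramembrane proteases and their inhibitors 23 were tested, with 8 higher and 8 lower at 48 h. TIMP1, an inhibitor of metalloproteinases, fell 3.22-fold at 48 h (-1.69 ± 0.08).

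Epithelial genes, and factors listed for epithelial programmes, were called in both directions. Of 22 genes of lung and epithelial identity 18 were tested, with 3 higher, 7 lower and 8 not called at 48 h and 2 higher, 5 lower and 11 not called at 72 h (median log2FC -0.08 and -0.20). Another list held 32 factors of epithelial programmes of surface antigens, not all of them particular to epithelia, with ELF3, NFE2 and FOSL1 among them. All were tested, and 13 were higher and 9 lower at 48 h and 11 higher and 10 lower at 72 h (median 0.09 and -0.06). At 6 h 1 was higher and 7 lower, where 1.28% and 3.04% of all genes were called. With the 6 h libraries fitted apart, 0 were higher and 3 lower of 30 tested, beside 0.139% and 0.837% of all genes. The summed level of 6 epithelial markers (EPCAM, CDH1, KRT7, KRT8, KRT18 and KRT19) ran from 10238 to 11026 CPM in DMSO and from 4699 to 4929 in PRT3789 at 48 h, and from 9161 to 9938 and 4136 to 4357 CPM at 72 h. At 6 h the ranges were 8677 to 10026 and 8032 to 9109 CPM. KRT8 and KRT18, which hold most of that sum, fell 2.45-fold and 2.55-fold at 48 h. ELF3, an epithelial ETS factor, fell 2.43-fold at 6 h already (-1.28 ± 0.07, edgeR adjusted p = 9.65e-09), as did NFE2, a bZIP factor, 7.76-fold (-2.95 ± 0.18, adjusted p = 1.74e-08). The part of KRT8, KRT18, ELF3 and NFE2 in the falls of NECTIN4, L1CAM, MUC16 and FOLR1 was not tested.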

How the data were processed

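Polyadenylated RNA of 18 NCI-H1693 libraries was sequenced as 150 bp read pairs. Per the labels and the design text, the authors ran nf-core/rnaseq 3.17.0 with Trim Galore, STAR on GRCh38 (annotation release 110) and RSEM; versions of the single tools are not given in the sources used here. The deposited values are expected counts per gene symbol, already whole numbers. Groups came from the labels.

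Genes were kept by filterByExpr (minimum count 10, 0.363 CPM), leaving 16291. One edgeR 4.0.16 model (R 4.3.3) with a mean per group was fitted to TMM-scaled counts, with quasi-likelihood F tests (robust, two-sided); the scripts had been tested on simulated data. Log2 CPM used a prior count of 2. Lengths are those of Ensembl canonical transcripts (GENCODE v44), and positions and promoters are from RefSeq (GRCh38.p14). No molecular identifiers are mentioned, so intervals and floors cover counting error only.

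Members and gene lists were chosen with earlier results of these data known. Named list genes are the 4 with the smallest p among called genes with a mean of at least 5 CPM and for likeness the 3 genes with the highest Pearson r; not all are printed. Genes outside this rule (SLC34A2, CEACAM6, SFTPA1, EGFR, ERBB2, EPHA3, FAP, NOTCH3, FOLR2, FOLR3 and MUC5AC) were picked with their values known. Results for some genes are not reported here. Alternatives were DESeq2 1.42.0 and its size factors, total counts, no filter, 1 CPM in 3 libraries, limma-voom 3.58.1 with and without sample quality weights, a replicate block, times fitted apart, each library left out and an adjusted p under 0.01. Removing a length trend, and leaving out the libraries at places 12 to 14, were added after seeing the data.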

Additional observations from a re-analysis of the deposited data

Results flagged for a closer look

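For 6 of the 8 tested antigens the effect of PRT3789 at 48 h differed from that at 6 h in the test of the difference itself (edgeR interaction contrast). The changes of log2FC were -4.89 ± 0.69 SE for MUC16 (adjusted p = 6.24e-05), -3.94 ± 0.25 for L1CAM (adjusted p = 7.46e-09), -2.45 ± 0.38 for FOLR1 (adjusted p = 0.000174), -0.80 ± 0.24 for ROR1 (adjusted p = 0.0244), -0.32 ± 0.10 for PTK7 (adjusted p = 0.029) and 0.99 ± 0.17 for MUC1 (adjusted p = 0.000527). The call was lost in 5 of 28 alternatives for ROR1 and in 9 of 28 for PTK7. Of all genes 19.2% were called in this test. NECTIN4 was not among them (0.04 ± 0.16, 95% interval -0.27 to 0.34, adjusted p = 0.905). No formal outlier test was run in groups of 3 libraries; the libraries at places 4 to 6 and 12 to 14, which stand apart in CEACAM5, MSLN, CEACAM6 and SFTPA1, are described with their values above.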

How the results depend on the processing

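Of 72 results for single antigens 34 were called, and 27 of these kept their call and direction under every alternative that gave a value. The other 7 lost it under at least 1, and none of the 34 changed direction. Total counts as the scale moved the median of all genes by 0.110 from 6 to 48 h in DMSO and by 0.114 in PRT3789. Whether same-numbered libraries pair cannot be settled from these values. Over 9 pairs the correlation of their deviations from group means of 3 libraries ran from -0.304 to 0.567, with 3 over 0.1. Those 3 were replicates 1 and 3 at 6 h (0.256 and 0.567) and replicate 1 at 48 h (0.200).

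Calls at 6 h rose from 0 higher to 1 (MSLN) with total counts, no filter, a filter of 1 CPM, DESeq2, times fitted apart, the length trend removed and without places 12 to 14, and to 2 with voom quality weights; leaving out single libraries gave 0 to 1. For the change of effect from 6 to 48 h, lower calls went from 5 to 3 at an adjusted p under 0.01 and ran from 3 to 5 over single libraries. For that from 48 to 72 h, quality weights gave 1 higher and 2 lower. For DMSO at 72 against 48 h, 1 was higher with DESeq2, quality weights, the replicate block and the length trend removed, and 0 to 1 over single libraries. For PRT3789 at 48 against 6 h, 2 were higher with quality weights and 1 to 2 over single libraries. For PRT3789 at 72 against 48 h, 1 was higher with DESeq2 and quality weights (0 to 1 over single libraries), and lower calls went from 1 to 0 with voom, the replicate block, an adjusted p under 0.01 and without places 12 to 14, to 2 with quality weights, and 0 to 1 over single libraries.

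Sign changes fell on 16 member results that were not called and on SFTPA1 (0 at 72 h without places 12 to 14, its counts there being 0 in both groups). Without places 12 to 14 the values were -0.0057 for NECTIN4 (change from 6 to 48 h), -0.26, 0.059 and -0.39 for MSLN (48 h, change from 48 to 72 h, DMSO 72 against 48 h), and 0.081 and 0.056 for MUC16 and ROR1 (both DMSO 72 against 48 h). ROR1 was at 0.0014 there with total counts and 0.00046 with no filter, FOLR1 at 0.054 with the length trend removed, FOLR1 at 6 h at -0.27 with quality weights, and PTK7 (change from 48 to 72 h) at 0.0075 with the length trend removed. Leaving out single libraries gave -0.11 to 0.18 for NECTIN4 (change from 6 to 48 h) and -0.26 to 0.46 for MSLN at 48 h. At 6 h it gave -0.097 to 0.22 for FOLR1, -0.047 to 0.34 for L1CAM, -0.041 to 0.18 for MUC1, -0.039 to 0.53 for MUC16 and -0.035 to 0.32 for ROR1. For DMSO at 72 against 48 h it gave -0.059 to 0.092 for NECTIN4, -0.16 to 0.034 for FOLR1, -0.092 to 0.20 for MUC1, -0.37 to 0.0098 for MUC16 and -0.066 to 0.050 for ROR1. It gave -0.26 to 0.027 for L1CAM (PRT3789 72 against 48 h) and -0.066 to 0.013 for PTK7 (change from 48 to 72 h).

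Low counts limit MSLN, MUC16, FOLR1 and CEACAM5. The causes of these differences were not tested.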
